A study of Mus musculus with 10 samples.

Results

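A group of 10 matricellular genes was followed through osteoblast differentiation, namely Tgfbi, Postn, Sparc, Fn1, Tnc, Tnn, Thbs1, Thbs2, Thbs3 and Smoc2. They are 10 of the 40620 genes in the count table, and were found by matching their Ensembl identifiers to symbols. The set groups related proteins around Tgfbi. Tgfbi itself was chosen by its measured fall in these same libraries, as one of the deepest over the 5 stages, so its levels and differences are given as a description with no test. The other 9 members were tested. They and the gene lists set beside them were also chosen with earlier results of these data known. Their counts beside the shares of all genes are therefore descriptive.

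Matricellular proteins are secreted into the extracellular matrix, where they bind collagens, growth factors and cell-surface receptors such as integrins rather than serving mainly as structural fibres. Osteoblasts secrete many of them into osteoid, the unmineralized bone matrix, and several are known as targets or regulators of TGF-β signalling. Fibronectin also builds structural fibrils, and tenascins and thrombospondins are known to bind it.

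RNA was sequenced from MC3T3-E1 cells, an immortalized mouse calvarial line of pre-osteoblasts, at 5 stages with 2 replicates each, A and B. Subconfluent and confluent cells were kept in growth medium. Cells collected at 24 h, 14 d and 21 d had been moved at confluence to osteogenic medium with β-glycerophosphate (10 mM) and ascorbic acid (50 µg/ml). No long culture in growth medium alone was included, so time in culture, cell density and medium cannot be told apart. All samples came from a single cell line, and the labels do not say whether A and B were separate cultures. The p-values therefore measure only the spread between these samples, which may be technical.

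Between 44736156 and 162939333 counts fell on genes per library. The osteoblast markers Runx2, Sp7, Alpl, Col1a1, Bglap, Ibsp and Dmp1 were all above 1 RPKM in some library. Their levels summed to 5502 and 5722 RPKM in the subconfluent libraries and to 14568 and 15855 RPKM at 14 d. The sums were 4888 and 7667 RPKM at 24 h and 8514 and 9073 RPKM at 21 d. Most of each sum was Col1a1, at 3788 to 10422 RPKM. The summed levels of the proliferation markers Mki67, Top2a, Cdk1 and Ccnb1 were 221 and 229 RPKM in the subconfluent libraries and 22.1 and 31.0 RPKM at 21 d. Adipocyte markers summed to at most 1.13 RPKM and endothelial markers to at most 0.0558 RPKM. The chondrocyte list summed to 174 and 176 RPKM in the subconfluent libraries, 89.3 and 97.7 RPKM at confluence, 45.7 and 62.8 RPKM at 24 h, 234 and 241 RPKM at 14 d and 111 and 119 RPKM at 21 d. Most of this was Col2a1, with Sox9 at 12.6 to 36.1 RPKM and Col10a1 at 0.0463 to 5.88 RPKM, and Acan and Matn1 were at most 0.0287 RPKM. The tendon list (Scx, Tnmd and Mkx) summed to 12.9 to 20.2 RPKM. The macrophage genes Ptprc and Adgre1 were at 0 in all libraries but one, in which Adgre1 had 0.00942 RPKM. Of the other genes of that list, Csf1r was at 1.83 to 3.19 RPKM and Cd68 at 0.464 to 0.936 RPKM, and Tyrobp ranged from 0 to 256 RPKM, with one replicate high and the other near 0 in confluent, 14 d and 21 d cells. Of the smooth muscle markers only Acta2 passed 1 RPKM, and the sum of the list was 1162 to 1537 RPKM in the first 3 stages and 425 to 486 RPKM at 14 d and 21 d. The part of these markers in the results was not tested. Fewer expressing cells and less RNA per cell cannot be told apart in these bulk samples.

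The 24 h libraries stood apart. Over 16133 genes, the SD of the log2 difference between replicates was 0.67 at 24 h and 0.28 to 0.32 at the other stages. The difference moved with gene length, with a median log2 difference (A minus B) of 0.31 for 6320 genes under 2000 bases and -0.40 for 3525 genes over 5000 bases. The long members went in the same direction. Replicate B had 2.23 times the RPKM of replicate A for Fn1 (10801 bases), 2.28 times for Thbs1 (5750 bases) and 1.80 times for Tnn (5788 bases). The ratios were 1.53 for Tnc (7473 bases), 1.52 for Thbs2 (5900 bases) and 1.39 for Postn (5196 bases). In the length bins with medians of 6019 and 8937 bases, the upper quartiles of log2 (B over A) were 0.53 and 0.75. Fn1 (1.16), Thbs1 (1.19) and Tnn (0.84) lay above both, and the reason was not tested. For the shorter Tgfbi (2661 bases) and Smoc2 (2819 bases) the ratios were 0.954 and 0.903. Each comparison with the 24 h stage rests on these 2 libraries, and the contrasts that do not use their levels, 14 d against confluent and 21 d against subconfluent, are given beside it. All 10 libraries were fitted together, so the spread at 24 h enters every SE and p-value unless the 24 h samples are said to be left out. The column headers also show one pair of index sequences for the libraries of the first 3 stages and another pair for 14 d and 21 d, so stage set and index pair cannot be told apart. Confluent against subconfluent, 24 h against confluent and 21 d against 14 d were each compared within a pair.

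**Figure D1:**
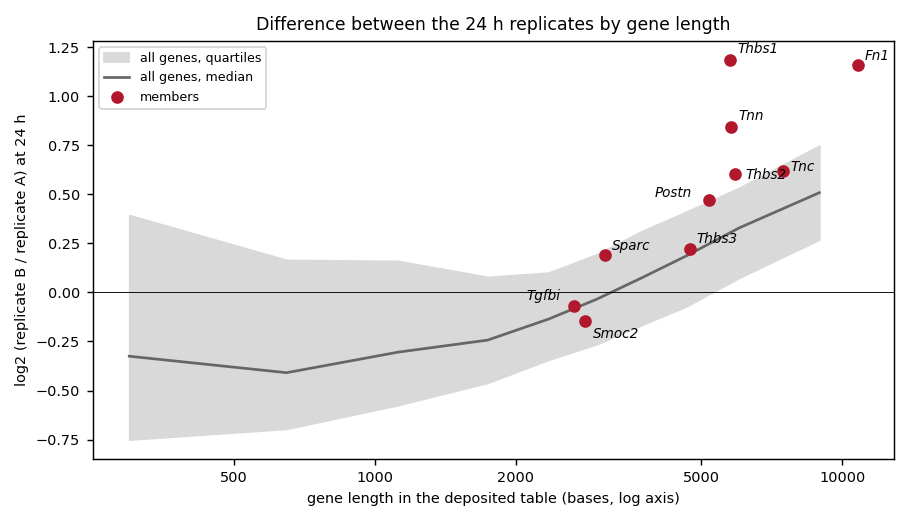
Ratio of replicate B to replicate A at 24 h (log2, y axis) against gene length in bases (log x axis). The grey line and band are the median and quartiles over 16133 genes in 10 length bins, the red points are the 10 members, and Fn1 and Thbs1 lie highest, at ratios of 2.23 and 2.28.

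Tgfbi encodes a secreted protein, also called keratoepithelin, with fasciclin domains that bind collagens and integrins, and it was named for its induction by TGF-β. Postn encodes periostin, its closest relative in structure, a protein of periosteum and other collagen-rich tissues. Their promoters are shown because the RNA levels of these relatives moved apart over the course. The sequences are RefSeq promoter windows on GRCm38, cut so that no base transcribed in the GENCODE annotation is included. Capitals mark the motif letters found.
Tgfbi, chr13:56609336-56609522, plus strand: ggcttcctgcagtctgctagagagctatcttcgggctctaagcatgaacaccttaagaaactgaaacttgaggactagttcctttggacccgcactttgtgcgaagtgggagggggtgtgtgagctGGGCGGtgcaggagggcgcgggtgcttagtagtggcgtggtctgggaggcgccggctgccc
Postn, chr3:54360857-54361106, plus strand: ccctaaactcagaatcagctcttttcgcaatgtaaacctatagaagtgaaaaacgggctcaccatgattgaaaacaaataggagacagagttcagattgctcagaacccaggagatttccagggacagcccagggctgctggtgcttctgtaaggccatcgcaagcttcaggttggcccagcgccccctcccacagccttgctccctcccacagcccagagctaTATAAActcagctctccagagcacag
In the Tgfbi window the GC-box letters GGGCGG lay 124 to 119 bases before the RefSeq start, and 32.7% of 32851 promoters held these letters on either strand within 250 bases. The Postn window shown held the TATA-box letters TATAAA 26 to 21 bases before the start, and 7.59% of promoters held them on the forward strand. Neither window held the Runx letters TGTGGT (in 14.0% of promoters), the AP-1 letters TGAGTCA or TGACTCA (4.46%), the Smad letters CAGACA (17.1%) or the TEAD letters GGAATG (12.6%), each searched on both strands. RefSeq lists a second window for Postn, chr3:54359017-54359266, which held none of the letters searched and is not shown. The GC content of the printed windows was 59.4% for Tgfbi and 52% for Postn.

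Tgfbi (ENSMUSG00000035493, chromosome 13, 56609523 to 56639562, plus strand, 17 merged exons) was at 33.2 and 32.6 RPKM in the 2 subconfluent libraries. It was at 22.5 and 19.1 RPKM in confluent cells, 6.77 and 6.46 RPKM at 24 h, 1.04 and 0.854 RPKM at 14 d, and 0.483 and 0.742 RPKM at 21 d. Both replicates of each stage lay below both of the stage before. The counts behind these values went from 9111 and 2688 in subconfluent cells to 45 and 158 at 21 d, so the last value is the least precise.

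The log2 difference of Tgfbi was -0.69 from subconfluent to confluent cells, -1.56 from confluent cells to 24 h, -2.67 from 24 h to 14 d and -0.68 from 14 d to 21 d. The step from 24 h to 14 d made up 47.7% of the whole log2 course and the first day of osteogenic medium 27.9%. Cells at 21 d had 48.5-fold less Tgfbi than subconfluent cells, and 14 d cells had 18.8-fold less than confluent cells. Among the 10224 genes that averaged 10 CPM or more, the difference was the 7th lowest in the first comparison and the 2nd lowest in the second. These ranks restate the choice of Tgfbi by its fall. Its mean of 21.1 CPM passed that limit through the early stages, where it was high. With 1 replicate left out, the log2 difference from subconfluent cells to 21 d ranged from -5.98 (without 21 d replicate B) to -5.35, in place of -5.60. Over the other alternatives it ranged from -5.76 to -4.40. Tgfbi was 7th of the 10 members by RPKM in subconfluent and confluent cells, 9th at 24 h and 10th at 14 d and 21 d.

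**Figure D2:**
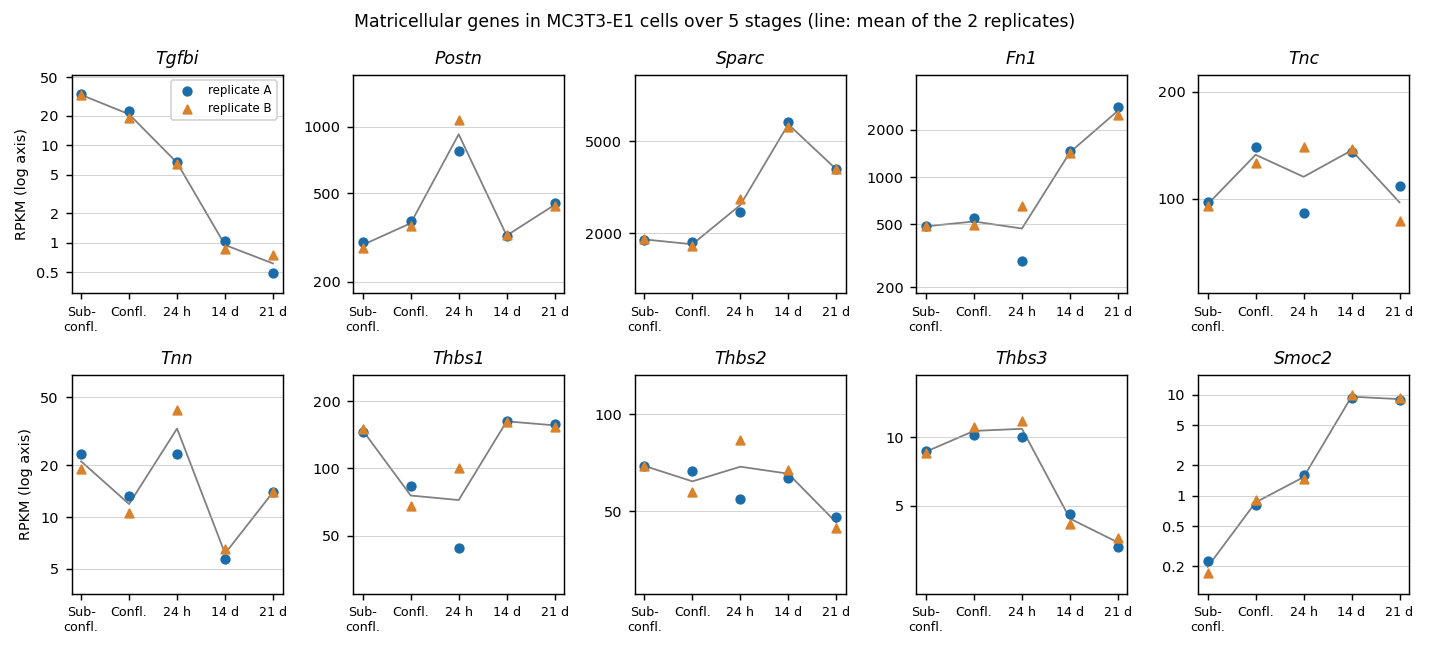
RPKM (log y axis, its range set for each gene) of the 10 members at the 5 stages. Points are replicates A and B and the line joins the stage means; Tgfbi fell from a mean of 32.9 to 0.613 RPKM while Smoc2 rose from 0.198 to 9.04 RPKM, and the 24 h replicates lay far apart for Fn1 and Thbs1.

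Of the 9 tested members, 7 differed over the 5 stages in edgeR's quasi-likelihood F test after Benjamini-Hochberg adjustment over 20808 genes, where 48.9% of all genes did. The members that did not pass were Tnc (adjusted p = 0.074) and Thbs2 (adjusted p = 0.098). All 9 passed with DESeq2, without either 24 h replicate, and in a test of the other 4 stages without the 24 h samples. A gene was called in a comparison of 2 stages when its adjusted p was under 0.05 and its level differed by more than 2-fold. Of the 9 members, 3 rose and 1 fell from subconfluent cells to 21 d, beside 27.6% of all genes called (16.3% higher and 11.3% lower). From confluent cells to 14 d, 4 rose and 1 fell, beside 13% of all genes (9.15% higher and 3.85% lower). With the 24 h samples left out of the fit, the counts for these 2 comparisons were as before, 4 and 5 members.

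Postn (ENSMUSG00000027750, chromosome 3, 54361109 to 54391037) was at 303 and 284 RPKM in subconfluent cells and at 376 and 358 RPKM in confluent cells. At 24 h its level was 775 and 1074 RPKM, and it was back at 321 and 325 RPKM at 14 d and 451 and 437 RPKM at 21 d. The 24 h libraries were the 2 highest of the 10. Postn rose from confluent cells to 24 h by a log2 fold change of 1.42 (SE 0.14, adjusted p = 0.003) and then fell by 1.38 on the log2 scale to 14 d (SE 0.14, adjusted p = 0.0011). In 14 d against confluent cells the difference was 0.03 (SE 0.13, adjusted p = 0.89). In 21 d against subconfluent cells it was 0.72 (SE 0.13, adjusted p = 0.0036), which is less than 2-fold. When only the 2 stages compared were fitted, the log2 fold changes of Postn to and from 24 h were 1.42 and -1.42 and neither was called (adjusted p = 0.25 and 0.10).

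The RPKM ratio of Postn to Tgfbi was 8.91 ± 0.290 (SD, n = 2) before confluence, 17.7 ± 1.47 at confluence and 140.3 ± 36.6 at 24 h. It was 345 ± 51.1 at 14 d and 761 ± 244 at 21 d. The replicates of each stage lay above those of the stage before. The denominator is Tgfbi, which was chosen for its fall, so the rise of this ratio is a description. Postn itself rose 1.64-fold from subconfluent cells to 21 d and fell 2.61-fold from 24 h to 14 d.

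**Figure D3:**
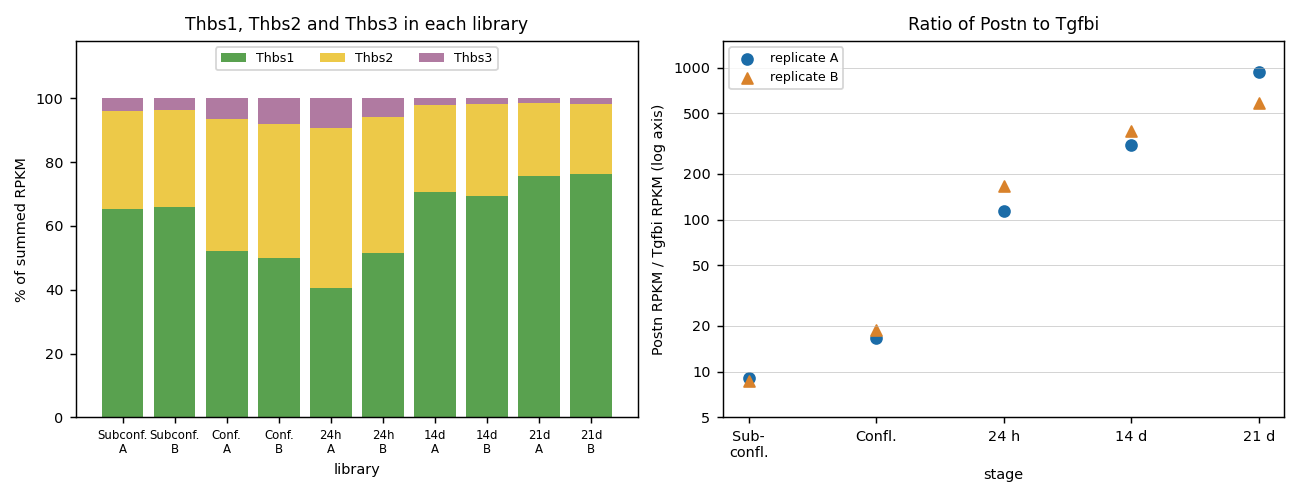
Left, share of Thbs1, Thbs2 and Thbs3 in their summed RPKM (%) in each library. Right, RPKM ratio of Postn to Tgfbi (log y axis) by stage, with a point for each replicate; the mean ratio went from 8.91 to 761 and the share of Thbs1 at 24 h was 40.6% and 51.5%, overlapping 49.8% and 52.1% in confluent cells.

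The collagen-binding glycoprotein Sparc, or osteonectin, is among the most abundant non-collagenous proteins of bone. Sparc (ENSMUSG00000018593, chromosome 11, 55394500 to 55423183, minus strand) had the highest RPKM of the 10 members at all 5 stages. Its level was 1871 and 1891 RPKM in subconfluent cells, 1826 and 1759 RPKM in confluent cells, and 2475 and 2821 RPKM at 24 h. It reached 6068 and 5763 RPKM at 14 d and was 3782 RPKM in both libraries at 21 d. Sparc rose from confluent cells to 14 d by a log2 fold change of 1.94 (adjusted p = 4.1e-05) and from subconfluent cells to 21 d by 1.12 (SE 0.10, adjusted p = 0.0001). Within the osteogenic stages it rose from 24 h to 14 d by 1.29 (SE 0.10, adjusted p = 0.00047). From 14 d to 21 d the difference was -0.72 (adjusted p = 0.005), less than 2-fold. Scaled by library size alone, the log2 fold change from subconfluent cells to 21 d was 0.97, under 2-fold.

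Smoc2 belongs to the same family as Sparc and encodes a calcium-binding matrix protein. It (ENSMUSG00000023886, chromosome 17, 14279506 to 14404790, plus strand) was the member with the least RNA in the first 3 stages. Smoc2 was at 0.224 and 0.172 RPKM in subconfluent cells, on 65 and 15 counts, and at 0.814 and 0.907 RPKM in confluent cells. It was at 1.61 and 1.45 RPKM at 24 h, 9.30 and 9.84 RPKM at 14 d, and 8.78 and 9.31 RPKM at 21 d. The ranges of 14 d and 21 d overlapped, and all other stages were apart. Smoc2 was the only member called between subconfluent and confluent cells, where 1.43% of all genes were (1% higher and 0.423% lower), with a log2 fold change of 2.06 (SE 0.17, adjusted p = 0.0017). The change from 24 h to 14 d was 2.77 (adjusted p = 0.0001) and that from confluent cells to 14 d was 3.69 (adjusted p = 2e-05). From subconfluent cells to 21 d Smoc2 rose 48.2-fold, a log2 fold change of 5.59 (SE 0.18, adjusted p = 2.5e-06). Tested on log2(RPKM + 1), which compresses low values, the step at confluence was 0.64 and not called. Over the alternatives other than leaving out 1 replicate, the change from subconfluent cells to 21 d ranged from 3.07 to 5.63. The change from confluent cells to 14 d ranged from 2.51 to 3.72.

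Fn1 encodes fibronectin, which cells assemble into fibrils through integrin receptors. Fn1 (ENSMUSG00000026193, chromosome 1, 71585520 to 71653200, minus strand) was at 486 and 488 RPKM in subconfluent cells and 552 and 493 RPKM in confluent cells. At 24 h the replicates were at 291 and 651 RPKM, on both sides of the earlier stages. Fn1 then stood at 1464 and 1416 RPKM at 14 d and 2816 and 2480 RPKM at 21 d, above all earlier libraries. It rose from subconfluent cells to 21 d 5.90-fold, a log2 fold change of 2.56 (SE 0.31, adjusted p = 0.00044), and from confluent cells to 14 d by 1.68 (adjusted p = 0.0056). From 24 h to 14 d the change was 1.76 (adjusted p = 0.01), and this call was lost when either 14 d library was left out. From 14 d to 21 d the difference was 0.80 (adjusted p = 0.15). The RPKM ratio of Fn1 to Sparc was 0.243 ± 0.00311 (SD, n = 2) at 14 d and 0.700 ± 0.0628 at 21 d.

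These changes altered what part of the library the 10 genes made up. They took 0.961% to 1.07% of all counts in the 4 libraries of subconfluent and confluent cells, and 1.02% and 1.62% in the 24 h libraries. At 14 d they took 2.55% and 2.52%, and at 21 d 3.14% and 2.87%. Sparc was the largest part at 14 d, with 1.24% and 1.21% of counts. Fn1 was the largest at 21 d, with 2.05% and 1.80%. These shares are not scaled by gene length, which was 10801 bases for Fn1 and 3108 bases for Sparc. By RPKM Sparc stayed above Fn1 at 21 d.

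**Figure D4:**
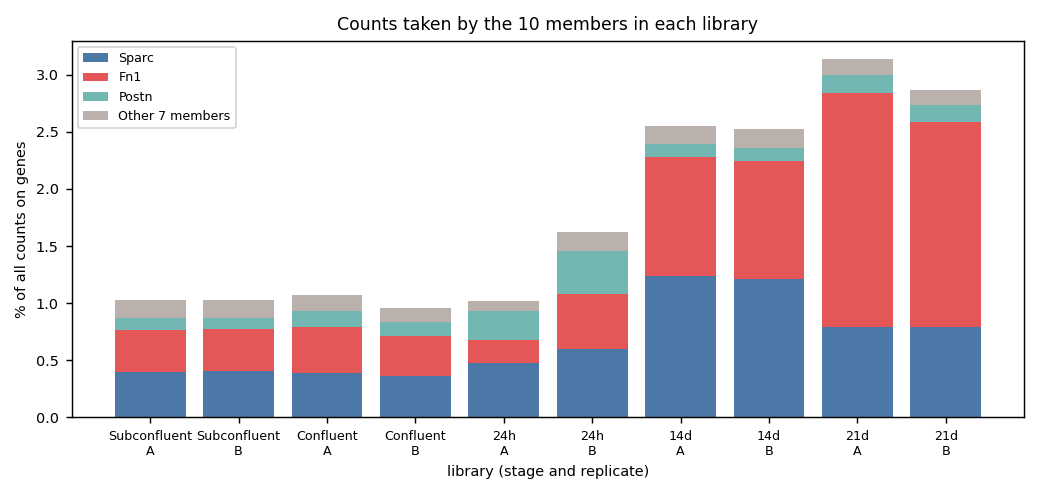
Share of all counts on genes (%) taken by Sparc, Fn1, Postn and the other 7 members in each of the 10 libraries. The stacked bars reach 0.961% to 1.07% in subconfluent and confluent cells and 2.52% to 3.14% at 14 d and 21 d, where Sparc and Fn1 make up most of the height.

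Tenascins are large glycoproteins that modulate the attachment of cells to fibronectin, and Tnn encodes the tenascin known from bone and periosteum, also called tenascin-W. Tnn (ENSMUSG00000026725, chromosome 1, 160085029 to 160153580, minus strand) went up and down between successive stages. It was at 23.2 and 19.0 RPKM in subconfluent cells, 13.2 and 10.6 RPKM in confluent cells, 23.4 and 42.1 RPKM at 24 h, 5.73 and 6.54 RPKM at 14 d, and 14.0 and 13.9 RPKM at 21 d. The replicate ranges of the 5 stages did not overlap. Tnn rose from confluent cells to 24 h by a log2 fold change of 1.54 (SE 0.24, adjusted p = 0.016). From 24 h to 14 d it fell by 2.27 on the log2 scale (adjusted p = 0.0018). From 14 d to 21 d it rose by 1.11 (adjusted p = 0.031), the only call among the members there. Of all genes, 3.97% were called in that comparison (1.52% higher and 2.45% lower), and with any fold change 3 members passed, beside 9.72% of all genes. This call was lost when any of the 4 libraries compared was left out and with scaling by library size alone, and the rise to 24 h was lost without either confluent library. In 14 d against confluent cells the difference was -0.74 (adjusted p = 0.053), and in 21 d against subconfluent cells -0.48 (adjusted p = 0.14).

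Tnc, the gene of tenascin-C, had the narrowest range of stage means of the 10 members. Its level was 97.8 and 95.2 RPKM in subconfluent cells, 140 and 126 RPKM in confluent cells, 91.0 and 140 RPKM at 24 h, 136 and 138 RPKM at 14 d, and 109 and 86.6 RPKM at 21 d. Neighbouring stages in the order of the means overlapped throughout, and the stage means spanned 1.42-fold. Tnc (ENSMUSG00000028364, chromosome 4, 63959785 to 64047015, minus strand) was called in none of the 6 comparisons by edgeR. The log2 difference from subconfluent cells to 21 d was 0.13 (adjusted p = 0.58), and its sign turned with library-size scaling (-0.024) and without 21 d replicate A (-0.039). The RPKM ratio of Tnn to Tnc was 0.219 ± 0.0270 (SD, n = 2) in subconfluent cells, 0.280 ± 0.0311 at 24 h and 0.0448 ± 0.00362 at 14 d.

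**Figure D5:**
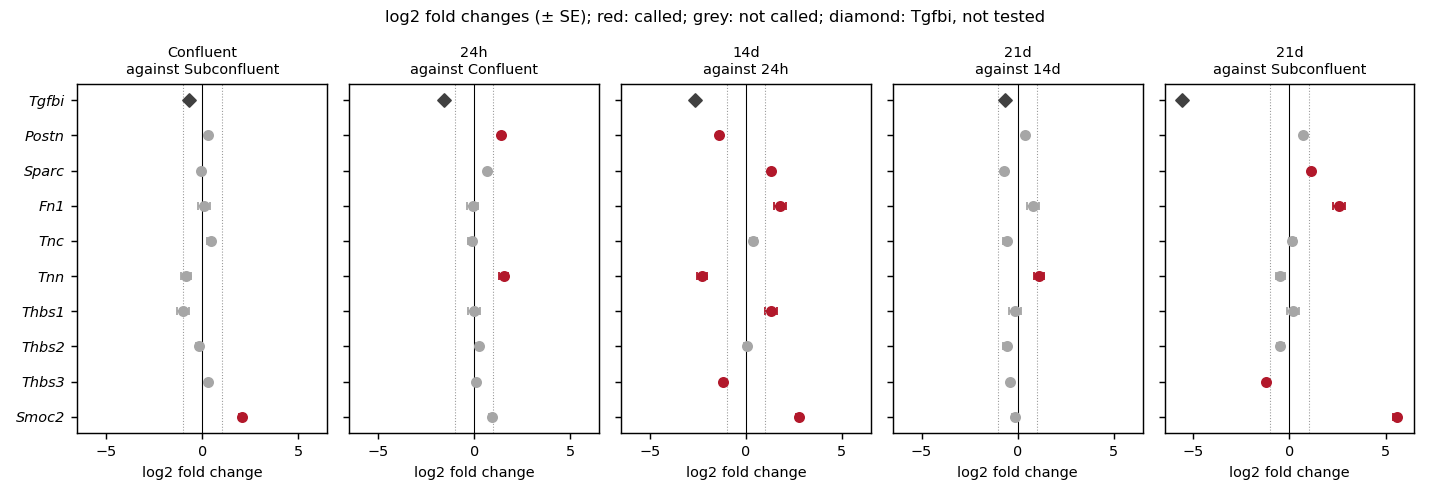
log2 fold change (x axis) of each member between successive stages and from subconfluent cells to 21 d. Bars are ± SE, red points are called, grey points are not, dotted lines mark 2-fold and the diamond is Tgfbi, which was not tested; from 24 h to 14 d 4 members rose and 3 fell.

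Thrombospondins bind calcium, matrix proteins and cell-surface receptors. Thbs1, which is known to activate latent TGF-β and to bind Cd47, and Thbs2 form trimers, whereas Thbs3 belongs to the pentameric kind. Thbs1 (ENSMUSG00000040152, chromosome 2, 118111876 to 118127133) was at 146 and 149 RPKM in subconfluent cells, 83.5 and 67.8 RPKM in confluent cells, and 44.1 and 100.3 RPKM at 24 h. It was at 164 and 161 RPKM at 14 d and 158 and 154 RPKM at 21 d. Both confluent libraries and both 24 h libraries lay below all others. From subconfluent to confluent cells the log2 difference was -0.99 (adjusted p = 0.15). Thbs1 rose from confluent cells to 14 d by 1.32 (adjusted p = 0.016), a call that was lost when any of the 4 libraries was left out and that held without the 24 h samples in the fit (1.30). From 24 h to 14 d it rose by 1.31 (adjusted p = 0.027), but without 24 h replicate A the change was 0.87, under 2-fold. Over the fits with 1 replicate left out, this change ranged from 0.87 to 1.91. In 21 d against subconfluent cells the difference was 0.19 (adjusted p = 0.63).

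Thbs2 (ENSMUSG00000023885, chromosome 17, 14665500 to 14694235, minus strand) was at 69.1 RPKM in both subconfluent libraries, 66.5 and 57.2 RPKM in confluent cells, 54.5 and 82.9 RPKM at 24 h, and 63.5 and 67.2 RPKM at 14 d. At 21 d it was at 47.8 and 44.3 RPKM, below all other libraries. No change of Thbs2 was called, and the log2 difference from subconfluent cells to 21 d was -0.47 (SE 0.17, adjusted p = 0.05), less than 2-fold.

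Thbs3 (ENSMUSG00000028047, chromosome 3, 89215180 to 89226837) was at 8.71 and 8.54 RPKM in subconfluent cells, 10.2 and 11.1 RPKM in confluent cells, and 10.0 and 11.7 RPKM at 24 h. It was at 4.62 and 4.16 RPKM at 14 d and 3.30 and 3.61 RPKM at 21 d, below the 6 earlier libraries. The log2 fold change of Thbs3 was -1.18 from 24 h to 14 d (adjusted p = 0.0005), -1.06 from confluent cells to 14 d (adjusted p = 0.00031) and -1.20 from subconfluent cells to 21 d (SE 0.10, adjusted p = 5.4e-05). Without confluent replicate B the second was just under 2-fold and not called. Its value is uncertain, because 318 exon bases are shared with Mtx1 on the opposite strand, Mtx1 had a mean count of 3353, and the strand setting of the counting is not given in the sources used here. Shorter overlaps on the opposite strand exist for Thbs1 (208 bases), Tnc (176 bases) and Fn1 (292 bases), and their partners had lower counts than the member.

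Within the summed RPKM of the 3 thrombospondins, Thbs1 made up 65.5% ± 0.379 (SD, n = 2) before confluence, 51.0% ± 1.61 at confluence, 46.0% ± 7.69 at 24 h and 75.9% ± 0.490 at 21 d. The share of Thbs2 was 30.6% ± 0.287, 41.8% ± 0.350, 46.3% ± 5.41 and 22.4% ± 0.644 at the same stages. Thbs3 made up 7.62% ± 2.28 at 24 h and 1.69% ± 0.154 at 21 d.

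Over the first day of osteogenic medium 2 of the 9 members, Postn and Tnn, rose and 0 fell, where 2.13% of all genes were called (1.76% higher and 0.365% lower). With any fold change 4 members passed, beside 5.15% of all genes, and DESeq2 called 2 by the 2-fold rule. When only the confluent and 24 h libraries were fitted, edgeR called 0 of the 9 members, 4 of which had an unadjusted p under 0.05, and 0 genes in all. From 24 h to 14 d Sparc, Fn1, Thbs1 and Smoc2 rose and Postn, Tnn and Thbs3 fell, 7 of 9 members, where 5.98% of all genes were called (4.47% higher and 1.51% lower). When only the 24 h and 14 d libraries were fitted, 2 of these 7 were called.

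A wider list of 27 other matricellular genes was counted beside the members. From subconfluent cells to 21 d, 10 of the 23 tested rose, 4 fell and 9 were not called, where 16.3% of all genes rose and 11.3% fell, and the median log2 difference was 0.78 beside 0.04 over all genes tested. The median was the same with the genes at 0 in subconfluent cells set at their lower bound. Vitronectin (Vtn), a plasma and matrix adhesion protein, had 0 counts in both subconfluent libraries and 80 and 170 counts at 21 d, at least 35.0-fold higher with a floor of 3 counts per library. Thbs4, a pentameric relative of Thbs3, had 0 counts in both subconfluent libraries and 32 and 110 at 21 d, at least 18.2-fold higher. Tnxb, the gene of tenascin-X, was at 0.0101 RPKM in subconfluent cells on 16 and 3 counts and at 2.58 RPKM at 21 d (log2 7.97, SE 0.35, adjusted p = 5.6e-06). Abi3bp rose by 2.80 (adjusted p = 0.0006), from a mean of 0.139 to 0.921 RPKM. The means of Vtn and Thbs4 at 21 d were also low, at 1.14 and 0.350 RPKM. The genes that fell were Ccn3 (-2.45), Ccn5 (-2.20) and Ccn4 (-1.43), of a family of cysteine-rich matrix proteins, and Emilin2 (-1.04), with adjusted p-values of 6.7e-06, 2.6e-05, 0.00037 and 5.8e-05. Spock1, Spock3, Fbln1 and Efemp1 did not pass the filter on low counts.

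Receptors of these proteins were counted next. Of 13 tested, 6 rose and 2 fell from subconfluent cells to 21 d, beside the same 16.3% and 11.3% of all genes, with a median log2 difference of 0.86. The integrin chain Itgav, which pairs with several β chains that bind fibronectin, vitronectin, Postn and Tgfbi, fell from 30.0 to 10.2 RPKM (log2 -1.44, adjusted p = 0.011). Its partner Itgb3 rose from 2.18 to 5.12 RPKM (1.35, adjusted p = 6.7e-05). Itga8 rose by 1.92 (adjusted p = 0.00078), and Itga9 fell by 1.29 on the log2 scale (adjusted p = 0.00079). The scavenger receptor Stab1, which is known to take up Sparc, and its relative Stab2 rose by 4.70 and 1.77 on the log2 scale (adjusted p = 3.9e-05 and 0.00075) but stayed at 0.546 and 0.350 RPKM at 21 d. Itgb6, Itga4 and Cd36 did not pass the filter.

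Of 10 collagens and matrix enzymes or proteoglycans that bind or process matricellular proteins, 1 rose and 0 fell from subconfluent cells to 21 d in edgeR, where 27.6% of all genes were called, with a median of -0.02. It was Dcn, the gene of the collagen-binding proteoglycan decorin, which went from 71.1 to 176 RPKM (log2 1.42, adjusted p = 1.6e-05). The list was not flat between these ends. Its median was 0.76 from confluent cells to 14 d, where 1 rose and 0 fell, beside 13% of all genes called. From 14 d to 21 d its median was -0.58, where 0 rose and 1 fell, beside 3.97% of all genes called. Over all genes these medians were 0.03 and -0.03. Of 13 ligands, receptors, transducers and targets of TGF-β signalling, 2 rose, 2 fell and 9 were not called, a share near the 27.6% of all genes called, with a median of 0.06. The ligand Tgfb1 rose 2.83-fold, from 21.8 to 56.8 RPKM (adjusted p = 2.1e-05) and the transducer Smad3 from 10.0 to 18.7 RPKM (1.01, adjusted p = 0.0015). Fold changes come from the fitted counts, not from RPKM. Smad3 rose 2.02-fold there, just past the limit, while its mean RPKM rose less than 2-fold. The ligand Tgfb3 fell from 48.5 to 19.6 RPKM (-1.19, adjusted p = 3e-05) and the inhibitory Smad7 from 7.81 to 3.20 RPKM (-1.17, adjusted p = 7.3e-05).

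The genes whose levels followed Tgfbi most closely over the 10 libraries, by Pearson correlation of log2 CPM among 10224 genes, were Fam49b (0.998), Sms-ps (0.995), Mapk11 (0.993), Wdr36 (0.993) and Stip1 (0.993). The libraries share the same 5 stages, so such values describe a common course. The falls of these genes were far smaller, from 21.9 to 6.91 RPKM between subconfluent cells and 21 d for Fam49b and from 176 to 69.0 RPKM for Stip1, beside 32.9 to 0.613 RPKM for Tgfbi. The closest to Postn were Tmco3 (0.952), Hspa1b (0.938), Ogn (0.927), Errfi1 (0.914) and Gm6665 (0.892). Ogn, which encodes the matrix proteoglycan osteoglycin, was at 164 RPKM in confluent cells, 241 RPKM at 24 h and 123 RPKM at 14 d.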

How the data were processed

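RNA-seq reads (51 bp, paired-end) came from 10 libraries of MC3T3-E1 cells. The submitters' processing notes name FastQC, TopHat2 2.0.9, R 3.0.1 and the build mm10. The counting tool, annotation and strand setting are not given in the sources used here. The deposited table holds raw read counts for 40620 genes, and RPKM, which the authors made from counts, gene length and a number of reads, for 40602 genes with complete rows. For 14 d replicate A and 21 d replicate B the merged column of 2 lanes was used. For 13526 and 13582 genes it differed from the sum of the lanes.

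Groups came from the sample labels. Identifiers were matched to GENCODE vM21 on GRCm38, and 39547 of 40620 had a symbol. Promoters were found in RefSeq windows for 7 of 10 members. Counts of all 10 libraries were fitted in edgeR 4.0.16 (R 4.3.3) with TMM, the default filter (20808 genes) and the quasi-likelihood test, in 6 comparisons and an F test, with Benjamini-Hochberg adjustment over all genes. DESeq2 1.42.0 and limma 3.58.1 were alternatives, besides other scalings, filters and sample sets and each replicate left out. Standard errors (SE) were taken as the size of the log2 fold change over the square root of its F statistic. The script was tested on simulated data. The members, lists and markers were chosen with earlier results of these data known. Named from each list were up to 4 called genes with the largest rise and up to 4 with the largest fall in 21 d against subconfluent cells, and the 5 genes most correlated with Tgfbi and with Postn. Lower bounds and the floor of 3 counts cover counting error only.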

Additional observations from a re-analysis of the deposited data

How the results depend on the processing

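Of 366 log2 fold changes of tested members under the alternatives, 335 kept their direction and their side of the threshold, 29 lost the call and 2 turned sign. Both reversals were of Tnc in 21 d against subconfluent cells, at -0.024 with library size alone and, with 1 replicate left out, over a range of -0.039 to 0.28. The cause was not tested.

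From subconfluent to confluent cells 1 member was called, and limma-trend on log2(RPKM + 1) called 0 of 9 (4 at an unadjusted p under 0.05), since adding 1 compresses Smoc2. From confluent cells to 24 h, where 2 were called, fitting only the 2 stages called 0 (4 at an unadjusted p under 0.05), any fold change gave 4 and leaving out 1 replicate 1 to 3, with 1 without either confluent replicate. From 24 h to 14 d, where 7 were called, only the 2 stages gave 2 and leaving out 1 replicate 5 to 7. From 14 d to 21 d, where 1 was called, library size alone gave 0 (5 at an unadjusted p under 0.05), any fold change 3, and leaving out any 1 of the 4 libraries compared 0 (3 to 5 at an unadjusted p under 0.05), while DESeq2 called 1. From confluent cells to 14 d, where 5 were called, leaving out 1 replicate gave 3 to 4, with 3 without confluent replicate B. From subconfluent cells to 21 d leaving out 1 replicate gave 4 to 4 members, and in the F test 6 to 9, with 9 without either 24 h replicate, and 9 also with DESeq2 and without the 24 h samples. Over all genes, fits to only the 2 stages called 0 and 319 genes in the comparisons of 24 h with confluent cells and 14 d, in place of 443 and 1245, and 360 to 5909 in the other 4, in place of 297 to 5740. The cause was not tested. Comparisons with 24 h had no value without the 24 h samples.

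Libraries with the same letter also carry the same index within a set of stages, and no label says that a letter marks a shared culture or day. The deviations of A from B correlated above 0.1 in 2 of 10 pairs of stages (-0.33 to 0.32). With the letter as a replicate block, the call of Tnn from 14 d to 21 d was lost, which left 0 members (7 at an unadjusted p under 0.05), and no other count of called members changed by more than 1.5 times.

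Library size alone moved the median of all genes from 0.03 to -0.20 in 14 d against confluent cells, from 0.04 to -0.12 in 21 d against subconfluent cells, and from 0.00 to -0.13 in 24 h against confluent cells. Of 58 log2 differences of Tgfbi, 53 moved by less than the spread between replicates. With counts in place of RPKM, 16 of 25 ratios and shares moved.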
